A study of Homo sapiens with 12 samples.

Results

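Cells labelled as knockouts of PERK were compared with wild-type cells of the same line, both carrying an empty vector, so the comparison gives the genotype difference in the absence of transfected STING. Its members are the symbols of the knockout experiment's table that rise above the floor of 1 in at least 1 of the 4 vector libraries, 11862 of 12421 symbols. The other 559 stood at that floor in all 4. The series measured RNA of polysome fractions in 12 libraries, and its title names a route by which cGAS and STING act through PERK on translation. All cells were HEK293, a human embryonic kidney line transformed with adenovirus DNA and obtained from ATCC, and all were transfected for 24 h with 5 ug of plasmid.

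The wild-type vector group and the PERK knockout vector group hold 2 libraries each. The knockout experiment also has 2 libraries of wild-type and 2 of knockout cells given a STING plasmid, and a separate first experiment has 2 vector libraries of HEK293 cells for which no genotype is listed. Every cell was treated with cycloheximide, which holds ribosomes on mRNA, and its lysate was spun through a sucrose gradient before RNA was taken from the ribosomal fraction. ERCC spike-in RNA was added before polyadenylated RNA was copied by Smart-seq2. The labels do not say how PERK was disrupted, whether the knockout line is a clone, or whether replicates are separate cultures, so each p-value is set against library-to-library spread, which may be technical. Total RNA was not analysed here, so a level in the polysome fraction can differ through the amount of an RNA or through its ribosome loading, and fewer cells expressing a gene cannot be told apart from less RNA per cell.

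PERK, encoded by EIF2AK3, is a kinase of the endoplasmic reticulum membrane that senses unfolded protein and phosphorylates the initiation factor eIF2alpha. Phosphorylated eIF2alpha slows general initiation and favours translation of ATF4, a transcription factor that induces genes of amino acid supply, redox balance and, under lasting stress, cell death. GCN2, PKR and HRI (EIF2AK4, EIF2AK2 and EIF2AK1) phosphorylate the same site, and STING signals from cytosolic DNA to interferon beta.

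The targeted gene could not be used to check the genotype. EIF2AK3 stood at the floor of 1 FPKM in all 4 vector libraries and in 7 of the 8 libraries of the experiment, with 1.15 in knockout STING library 2. In the vector libraries of the first experiment, whose table reaches below 1, it stood at 0.386 and 0.355. TMEM173, the older symbol of STING, stood at 23.1 and 36.7 in the wild-type and at 23.5 and 43.8 in the knockout vector libraries, so the endogenous STING transcript overlapped between genotypes (log2 difference 0.14, SE 0.34, limma adjusted p = 0.91).

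Within each genotype the vector replicates correlated across genes at Pearson r = 0.987 in wild-type and 0.977 in knockout cells on the log2 scale. Between 13.1% and 18.1% of the 12421 symbols stood at the floor in a library of the experiment. No counts are given, so absolute depth is unknown. All 20 genes listed as typical of HEK293 cells were present, with summed levels of 345 and 438 in the wild-type and 467 and 599 in the knockout vector libraries. Of markers of other cell types, haematopoietic markers had 6 of 20 genes in the table and summed to between 9.73 and 18.7. Fibroblast markers had 4 of 13, which summed to 20.6 and 20.8 in the wild-type and 23.3 and 23.8 in the knockout vector libraries. Hepatocyte markers had 4 of 16. The 3 of them tested summed to 4.50 and 4.11 in the wild-type and 11.7 and 6.73 in the knockout vector libraries. Each gene adds at least the floor of 1 to a sum. Keratinocyte and cervical carcinoma markers had 6 of 14 genes in the table. The 5 tested summed to 397 and 360 in the wild-type and 447 and 417 in the knockout vector libraries. Nearly all of that sum was CDKN2A, a cell cycle inhibitor, at 392 and 356 against 439 and 412, while the keratins of that list that the table holds stood at the floor. The part of these markers in any result was not tested.

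The genotype difference passed the threshold in 6 of the 12254 symbols that varied over the 8 libraries (limma adjusted p under 0.05, 0.049% of those tested), with 4 higher (0.0326%) and 2 lower (0.0163%) in knockout cells. EPHA8, an ephrin receptor, TMSB15A, a thymosin that binds actin, KRT8, a simple-epithelium keratin, and GAP43, a growth cone protein of neurons, rose. CCL5, a chemokine induced by interferon regulatory factors and NF-kB, and BMP2, a bone morphogenetic protein, fell.

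CCL5 stood at 131 and 110 FPKM in the wild-type and at 17.3 and 11.9 in the knockout libraries, 120 ± 14.8 against 14.6 ± 3.80 (SD, n = 2). It fell by 2.97 on the log2(FPKM + 1) scale (SE 0.28, limma adjusted p = 0.0402), 8.23-fold on the linear scale. BMP2 stood at 7.57 and 7.51 against 1.05 and 1.41 and fell by 1.94 (SE 0.21, limma adjusted p = 0.0444). Values joined by "against" are wild-type and then knockout vector libraries, each in the order of replicates 1 and 2. In BMP2 the knockout libraries lay close to the floor, which understates the fall.

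EPHA8 stood near the floor in wild-type cells, at 1.05 and 1.03, and at 10.6 in each knockout library, a rise of 2.50 (SE 0.22, limma adjusted p = 0.0402). KRT8 stood at 15.6 and 18.6 against 54.7 and 65.2, 3.51-fold higher in knockout cells (log2 difference 1.75, SE 0.19, limma adjusted p = 0.0444). TMSB15A stood at 30.6 and 26.9 against 99.4 and 99.8, 3.47-fold higher (log2 difference 1.76, SE 0.19, limma adjusted p = 0.0444). TMSB15A has a near-identical copy, TMSB15B, so its reads may be split between them. GAP43 was listed at the floor of 1 in both wild-type libraries and at 3.59 and 4.10 in the knockout libraries (log2 difference 1.27, SE 0.13, limma adjusted p = 0.0444). For each of the 6 genes the knockout libraries lay entirely on one side of the wild-type libraries.

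**Figure D1:**
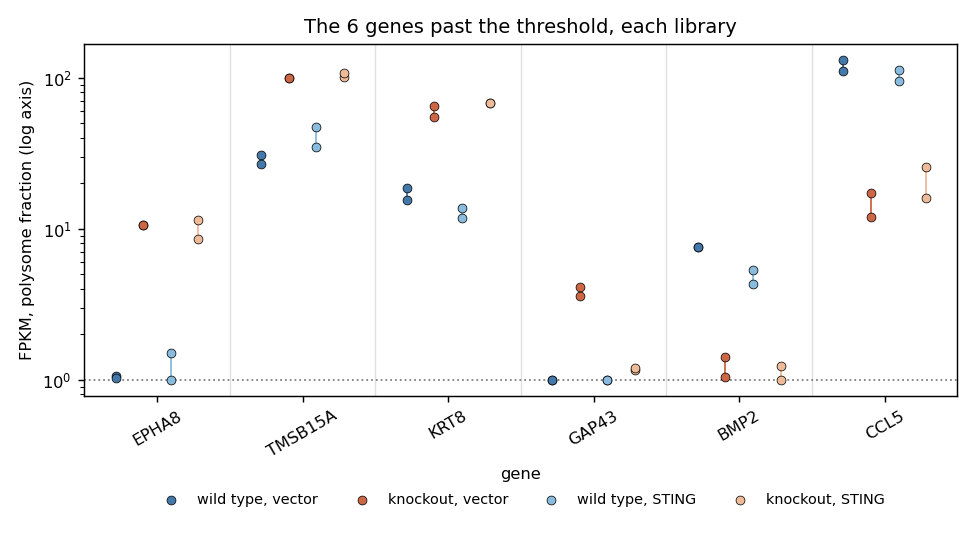
Levels of the 6 genes past the threshold in each library of the knockout experiment (vertical axis, FPKM on a log axis; 2 points a group, joined by a line; the dotted line is the floor of 1). EPHA8, TMSB15A and KRT8 are high and BMP2 and CCL5 low in knockout cells with either plasmid, while GAP43 is raised in the knockout vector libraries and stands at 1.16 and 1.203 in the knockout STING libraries.

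The count of 6 rests on every library of the experiment. Leaving out any of the 4 wild-type libraries, or knockout vector library 1, left 0 calls, leaving out knockout vector library 2 left 1, and leaving out either knockout STING library left 3. With libraries rescaled by median of ratios 53 genes passed, 41 higher and 12 lower, and the 6 were among them. With the replicate number as a block 105 passed, 62 higher and 43 lower, again with the 6 among them. The closing section says why the fit without the block was kept. At an unadjusted p under 0.05, 537 genes were higher (4.38%) and 979 lower (7.99%), and that split turned to 909 higher and 532 lower after median-of-ratios scaling and to 721 and 712 after quantile normalization. The median difference of all tested genes was -0.09 as deposited and 0.05 after median-of-ratios scaling, a shift of 0.14, so small differences of either sign depend on the scaling.

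The STING libraries hold the same genotypes in other samples. Their levels do not enter a vector difference, but their spread enters its SE and p-value, so the 2 sets of calls are not independent. They come from the same cell lines, so they repeat the comparison of these lines and not the making of the knockout, and their STING transcript was itself lower in knockout cells (8925 ± 2244 against 41236 ± 815 FPKM for TMEM173, SD, n = 2). There, 148 genes were higher (1.21%) and 67 lower (0.547%) in knockout cells (limma adjusted p under 0.05, 1.75% of those tested). That count also rests on every library: it was 128 without knockout vector library 1 and 0 or 1 with any other library left out. Of the 6 genes, 5 passed again in the same direction. CCL5 stood at 112 and 95.7 in wild-type and at 25.5 and 15.9 in knockout STING libraries (limma adjusted p = 0.025). KRT8 stood at 11.8 and 13.7 against 67.9 and 68.3 (limma adjusted p = 0.023).

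GAP43 was the exception, with a difference of 0.12 in the STING libraries (limma adjusted p = 0.70). The change in its genotype difference, -1.15, did not pass the interaction test (limma adjusted p = 0.97). No gene passed that test in limma, in which 474 of 12254 (3.87%) had an unadjusted p under 0.05, and every alternative setting run also gave 0.

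Because so few genes passed, those with large differences were described by size, a rule chosen after the values were seen: a log2 difference of at least 1, no overlap between the vector libraries of the genotypes, and a mean of at least 10 FPKM in the higher group. It took 67 genes higher (0.547%) and 56 lower (0.457%) in knockout cells. In the STING libraries all 67 and all 56 kept their sign, 64 and 51 again without overlap, and 35 and 16 passed the adjusted test there. Most genes at an unadjusted p under 0.05 with vector also kept their sign there, 93.5% of the 537 higher and 86.2% of the 979 lower. Of those 537 and 979, 439 and 662 did not overlap with STING, and 117 and 48 passed the adjusted test there. The median difference was 1.32 with vector and 1.48 with STING among the higher, and -1.16 and -1.02 among the lower. In the vector libraries of the first experiment, whose scale is not shared, both values lay below both knockout vector values for 60 of the 67 and above both for 37 of the 56. The genes were chosen on those same knockout values, so these counts are partly set by the choice. The share over all tested genes was not computed for the first experiment.

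Among the higher genes were CXCR4, a chemokine receptor (4.72 and 4.14 in wild-type against 16.3 and 21.7 in knockout vector libraries), SEPP1, the plasma selenium carrier selenoprotein P (1.98 and 1.90 against 8.89 and 13.4), and LGALS3BP, a secreted galectin ligand (4.82 and 8.05 against 21.95 and 37.2). PROCR, the endothelial protein C receptor, stood at 15.7 and 19.9 against 47.7 and 70.5. Each of these 4 missed the threshold with vector (limma adjusted p between 0.0556 and 0.139) and passed it with STING (between 0.0251 and 0.0310). MAGEA3, a cancer-testis antigen, was listed at the floor in both wild-type libraries and at 9.90 and 19.7 in the knockout libraries (limma adjusted p = 0.060). MAGEA3 is nearly identical to MAGEA6, so its reads cannot be assigned with certainty.

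Among the lower genes, TBK1, the kinase downstream of STING, stood at 19.4 and 2.87 in wild-type against 1.74 and 2.198 in knockout libraries. Its log2 difference of -1.58 (limma adjusted p = 0.40) rests on wild-type vector library 1 and was -0.39 without it. ACTA2, smooth-muscle actin, stood at 9.75 and 13.2 against 2.73 and 4.02 (limma adjusted p = 0.14), and LTV1, a ribosome assembly factor, at 17.6 and 36.9 against 4.07 and 16.4 (limma adjusted p = 0.36). The wild-type libraries did not overlap the knockout libraries in any of the 3 genes, since the rule required it.

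**Figure D2:**
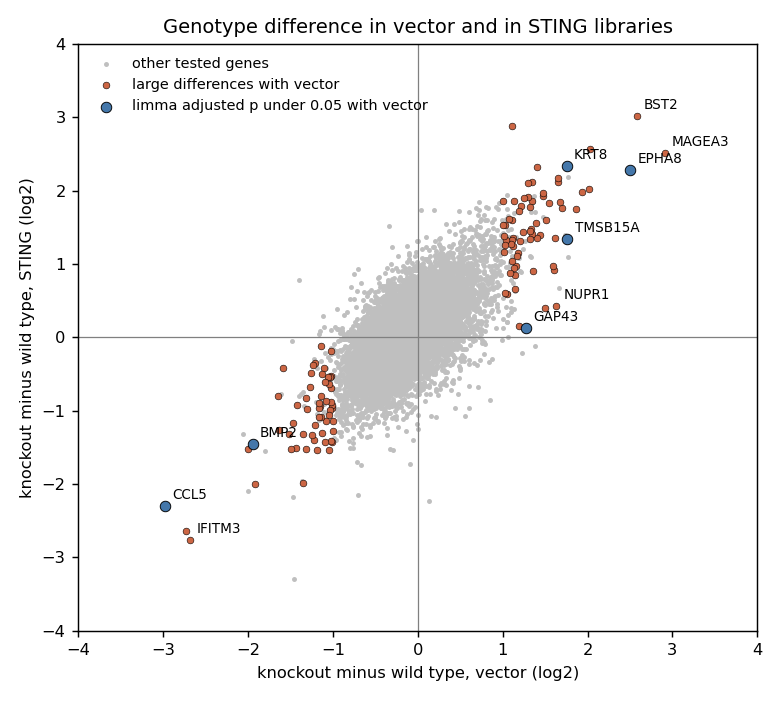
Difference between knockout and wild-type cells for each tested gene in the vector libraries (horizontal axis, log2) and in the STING libraries (vertical axis, log2). The 123 genes with large differences in the vector libraries (67 higher, 56 lower) keep their sign in the STING libraries, and GAP43 and NUPR1 lie closest to the horizontal line among the named higher genes.

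No member of the lists for the integrated stress response passed the adjusted test in the vector libraries. Of 22 tested eIF2alpha kinases, phosphatases and eIF2 subunits, 0 were higher and 3 lower at an unadjusted p under 0.05, against 4.38% and 7.99% of all genes. The list's median difference was -0.30 against -0.09 over all genes. In genes averaging at least 5 FPKM the 2 medians were -0.36 and -0.17. With a library left out in turn the list's median was between -0.52 and -0.02, and that of all genes between -0.16 and -0.02. PPP1R15A, the stress-induced subunit that directs phosphatase to eIF2alpha, stood at 56.9 and 65.2 in wild-type and at 40.9 and 48.6 in knockout libraries (log2 difference -0.44, limma adjusted p = 0.38). EIF2B5, the catalytic subunit of the exchange factor that eIF2alpha phosphorylation inhibits, stood at 22.3 and 22.9 against 15.9 and 15.8 (log2 difference -0.49, limma adjusted p = 0.36). DNAJC3, a PERK-inhibiting co-chaperone, stood at 2.03 and 2.48 against 1 and 1.10, at or near the floor in knockout cells.

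Among the other eIF2alpha kinases, EIF2AK1 (HRI, the haem-regulated kinase) was lower without overlap, at 27.3 and 36.0 against 18.1 and 24.5 (log2 difference -0.55, limma adjusted p = 0.49). EIF2AK4 (GCN2, the amino acid sensor) stood at 3.60 and 4.81 against 3.78 and 4.73, and EIF2AK2 (PKR, the sensor of double-stranded RNA) at 1.997 and 3.86 against 1.88 and 3.39. EIF2AK4 and EIF2AK2 overlapped between genotypes. EIF2S3, the most abundant member of the list and a subunit of eIF2, stood at 146 and 209 against 193 and 261 (log2 difference 0.36, limma adjusted p = 0.56).

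ATF4 mRNA was abundant in the polysome fractions of both genotypes, at 2905 and 2549 FPKM in wild-type and 2406 and 2055 in knockout vector libraries. The libraries did not overlap, and the log2 difference was -0.29 (SE 0.22, limma adjusted p = 0.62). Of 26 tested transcription factors and feedback genes of the ATF4 pathway, none passed adjustment. At an unadjusted p under 0.05, 2 were higher and 5 lower, against 4.38% and 7.99% of all genes. Those higher were NUPR1, a stress-induced chromatin protein, and DDIT4, an inhibitor of mTORC1. NUPR1 stood at 24.6 and 15.2 against 72.6 and 53.5 (log2 difference 1.63, SE 0.29, limma adjusted p = 0.12), and in the STING libraries at 22.9 and 15.5 against 26.6 and 24.9. DDIT4 stood at 99.1 and 117 against 201 and 330 (log2 difference 1.25, limma adjusted p = 0.24) and passed with STING (log2 difference 1.90, limma adjusted p = 0.044).

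The lower members were CDKN1A, SESN2, TNFRSF10B, GDF15 and PPP1R15A, and at least the first 3 are p53 targets as well. SESN2, a leucine sensor that restrains mTORC1, stood at 39.0 and 47.9 against 19.03 and 25.1 (log2 difference -0.95, limma adjusted p = 0.19), and GDF15, a secreted stress cytokine, at 5.23 and 3.66 against 1.55 and 1.32 (log2 difference -1.15, limma adjusted p = 0.32). DDIT3 (CHOP, a pro-apoptotic factor) overlapped, at 57.8 and 58.8 against 51.9 and 60.7. CHAC1, a glutathione-degrading enzyme, and TRIB3, a pseudokinase that restrains ATF4, had log2 differences of -0.29 and 0.33 (limma adjusted p = 0.70 and 0.61). In the STING libraries DDIT3 fell by 0.97 and CHAC1 fell by 1.54 in knockout cells (limma adjusted p = 0.044 and 0.048). The difference between those effects was not past the interaction test for either gene (limma adjusted p = 0.97).

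The median of 24 tested enzymes of amino acid synthesis was -0.00066. At an unadjusted p under 0.05, 3 were higher and 0 lower, against 4.38% and 7.99% of all genes. The 3 were ASS1, argininosuccinate synthase (45.8 and 38.3 against 76.8 and 78.9), ASNS, asparagine synthetase (24.0 and 27.7 against 38.8 and 41.6), and CBS, which makes cystathionine (59.4 and 67.5 against 86.1 and 92.0). Knockout libraries were higher without overlap in all 3 (limma adjusted p between 0.146 and 0.338). PHGDH and PYCR1, the most abundant of the list and enzymes of serine and proline synthesis, had log2 differences of 0.34 and -0.14. Among 19 tested amino acid transporters 1 was higher, SLC7A3 (1.82 and 1.55 against 3.97 in each knockout library), and 1 lower, SLC6A9. Of these carriers 3 were higher and 4 lower without overlap, and their median was -0.16. Over all genes 12.5% were higher and 25.8% lower without overlap, so these counts are close to the background. SLC3A2 and SLC1A5, the most abundant, had log2 differences of -0.41 and -0.23 (limma adjusted p = 0.45 and 0.79). Of 23 tested cytosolic tRNA synthetases and their partners 0 were higher and 3 lower, FARSA, FARSB and AIMP2, and the list's median was -0.38. With a library left out in turn that median was between -0.61 and -0.10.

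Beside CCL5, the largest differences toward lower levels were in interferon genes. Of 26 tested interferon-stimulated genes none passed the adjusted test. Cells switch these genes on through STAT and IRF factors after interferon or directly through IRF3. At an unadjusted p under 0.05, 8 were lower and 3 higher, against 7.99% and 4.38% of all genes. Those 8 were again lower in the STING libraries. Among all 979 genes lower with vector at that p, 844 (86.2%) were too, so this repeat is close to the background. The 8 stayed at 8 with each library left out in turn. Over the whole list the median was -0.18 against -0.09 for all genes. IFITM1, IFITM2 and IFITM3 are membrane proteins that block virus entry, IFIT1, IFIT2 and IFIT3 bind viral RNA, OASL enhances RNA sensing, and ISG15 is a ubiquitin-like modifier. BST2, which tethers budding virions, and UBE2L6, the conjugating enzyme of ISG15, were higher.

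To show what the promoters of these genes have in common, 100 bases around the matches to the interferon-stimulated response element are given for 3 genes that stood lower and for BST2, which stood higher, from RefSeq promoters of build GRCh38.p14. Each runs 5′ to 3′ on the gene's strand, with matches to the element, searched as GAAA, any 2 bases and GAAA on either strand, in capitals (overlapping matches are merged). IFITM1 lies at chr11:313955-314054 on the plus strand, IFITM3 at chr11:320858-320957 on the minus strand, IFIT1 at chr10:89392462-89392561 on the plus strand and BST2 at chr19:17405706-17405805 on the minus strand.
IFITM1: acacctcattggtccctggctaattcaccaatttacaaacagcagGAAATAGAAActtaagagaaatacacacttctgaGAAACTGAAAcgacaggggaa
IFITM3: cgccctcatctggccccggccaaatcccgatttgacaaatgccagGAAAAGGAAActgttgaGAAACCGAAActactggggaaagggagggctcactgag
IFIT1: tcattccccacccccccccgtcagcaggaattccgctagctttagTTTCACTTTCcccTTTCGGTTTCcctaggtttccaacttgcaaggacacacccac
BST2: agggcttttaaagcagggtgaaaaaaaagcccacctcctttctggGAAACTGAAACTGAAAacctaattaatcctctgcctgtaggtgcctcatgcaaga

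Each of the 4 holds 2 matches in the window from 250 bases before to 50 after the start. Of the interferon-stimulated genes tested, 20 had a promoter in the table and 14 of them (70.0%) held the element, against 2.57% of the 8974 tested genes with a promoter there and 3.65% of all 27305 promoters. The match is a description of the letters. It was found in genes lower in knockout cells (IFITM1, IFITM3, IFIT1, IFIT3, ISG15), in a gene that was higher (BST2) and in genes that differed little (IFI6, EIF2AK2).

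IFITM3 stood at 113 and 90.2 FPKM in wild-type and at 14.1 and 15.5 in knockout vector libraries, 6.86-fold lower (log2 difference -2.69, SE 0.31, limma adjusted p = 0.052). OASL stood at 29.4 and 28.0 against 5.05 and 2.30 (log2 difference -2.73, SE 0.34, limma adjusted p = 0.056). In both, the highest knockout library lay far below the lowest wild-type library. IFITM1 stood at 179 and 111 against 39.1 and 34.5, and IFITM2 at 112 and 93.9 against 41.1 and 25.3 (limma adjusted p = 0.075 and 0.093). The IFITM genes resemble each other in sequence, so some reads may be shared.

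IFIT1, IFIT2 and IFIT3 were low in wild-type cells and at or near the floor in knockout cells. IFIT5, also tested, went the other way (log2 difference 0.41) but was not among the members with an unadjusted p under 0.05. IFIT1 stood at 9.58 and 15.1 against 1.63 and 3.03 (log2 difference -2.0, limma adjusted p = 0.064). IFIT2 stood at 5.05 and 9.61 and was listed at the floor of 1 in both knockout libraries, and IFIT3 stood at 4.52 and 7.35 against 1.89 and 1.07 (limma adjusted p = 0.063 and 0.12). ISG15 differed less, at 109 and 82.7 against 52.6 and 51.6 (log2 difference -0.85, limma adjusted p = 0.22). With STING, IFITM1, IFITM3, IFIT2, IFIT3 and OASL passed the adjusted test with differences between -2.0 and -2.77.

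BST2 went the other way. It stood at 2.36 and 1 in wild-type and at 14.7 and 14.3 in knockout libraries (log2 difference 2.58, SE 0.38, limma adjusted p = 0.064), and passed with STING (log2 difference 3.02, limma adjusted p = 0.029). UBE2L6 stood at 8.21 and 10.8 against 17.4 and 26.6 (log2 difference 1.11, limma adjusted p = 0.24). IFI35, the third higher member, stood at 1 in both wild-type libraries and at 2.21 and 1.25 in the knockout libraries. IFI6, the member with the highest mean level, overlapped at 97.1 and 75.9 against 94.4 and 112.

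IFNB1, the gene of interferon beta itself, was looked at after its values were seen. It stood at 7.02 and 7.65 in the wild-type vector libraries and was listed at the floor of 1 in both knockout libraries (log2 difference -2.06, SE 0.28, limma adjusted p = 0.060). In the STING libraries it stood at 6.97 and 3.50 against 1.37 and 1.42. After median-of-ratios scaling IFNB1, OASL, IFITM1, IFITM3, IFIT1, IFIT2 and BST2 were among the 53 genes that passed. Of 14 tested genes of the cGAS-STING pathway itself, 0 were higher and 1, the DNA sensor DDX41, lower at an unadjusted p under 0.05 (53.2 and 51.2 against 35.5 and 36.2, limma adjusted p = 0.28). With 7.99% of all genes lower, that count is close to the background. IRF3, the factor that TBK1 phosphorylates, overlapped at 67.0 and 50.1 against 65.9 and 45.0.

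**Figure D3:**
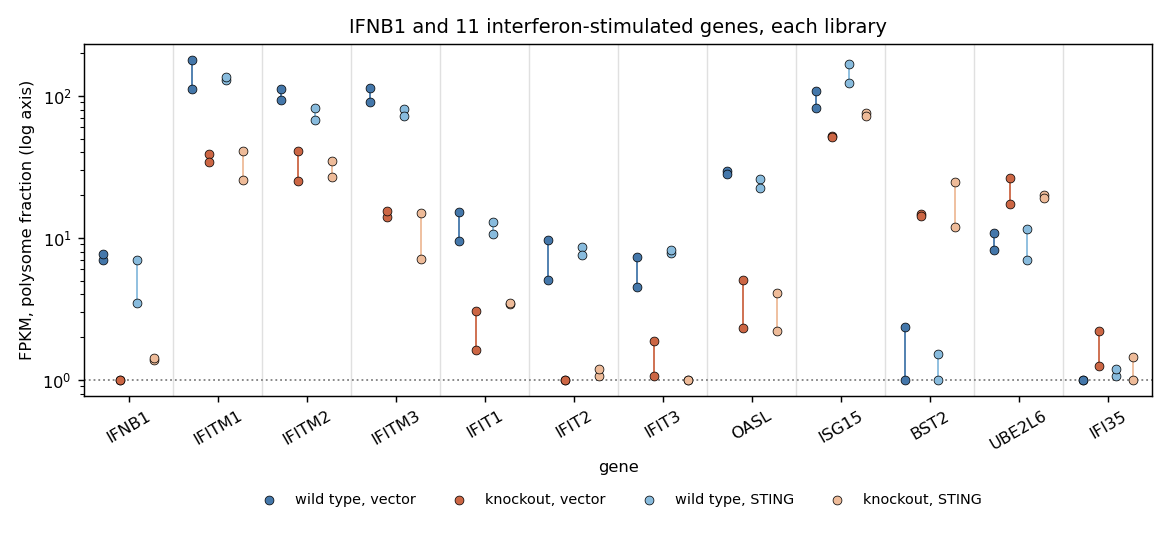
Levels of IFNB1 and of the 11 interferon-stimulated genes with an unadjusted p under 0.05, in each library of the knockout experiment (vertical axis, FPKM on a log axis; 2 points a group, joined by a line; the dotted line is the floor of 1). The 8 lower genes and IFNB1 are low in knockout cells with either plasmid, and BST2 and UBE2L6 are high.

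Antigen presentation and NF-kB genes were counted as well. Of 16 tested antigen presentation genes 3 were higher and 0 lower at an unadjusted p under 0.05, namely HLA-DPA1, HLA-DRB1 and HLA-F. HLA-DPA1, a class II chain, stood at 1 and 1.63 against 6.01 and 7.69, and HLA-DRB1 was listed at the floor in both wild-type libraries and at 3.81 and 4.43 in the knockout libraries (limma adjusted p = 0.060 and 0.075). HLA-F, a class I gene, stood at 24.0 and 21.2 against 35.2 and 34.8 (limma adjusted p = 0.39). All 3 passed in the STING libraries (limma adjusted p = 0.024, 0.024 and 0.044). HLA genes share sequence with their relatives, so their reads may be split. B2M, the class I light chain, overlapped. Of 22 tested NF-kB targets and subunits, 2 were higher (IER3 and CXCL3) and 2 lower (RELA and NFKB1) at an unadjusted p under 0.05. With 4.38% of all genes higher and 7.99% lower, these counts are close to the background. NFKBIA, the inhibitor of NF-kB and the most abundant of them, stood at 72.9 and 81.4 against 97.9 and 92.7 with vector and at 127 and 126 against 106 and 108 with STING. Its groups did not overlap in either set and the direction differed, but the interaction test was not passed (-0.54, limma adjusted p = 0.97).

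The tested p53 targets had a median of -0.57 with vector and -0.29 with STING. Of 24 tested, 14 were lower and 0 higher at an unadjusted p under 0.05, against 7.99% and 4.38% of all genes, and none passed adjustment. After median-of-ratios scaling 8 were lower and 1 higher, and with each library left out in turn between 9 and 13 were lower and 0 higher. CDKN1A, the cell cycle inhibitor p21, stood at 82.5 and 64.0 against 34.3 and 23.5 (log2 difference -1.32, SE 0.24, limma adjusted p = 0.12) and passed with STING (-1.52, limma adjusted p = 0.034). TP53I3, a quinone oxidoreductase, stood at 13.3 and 13.8 against 3.09 and 7.28 (limma adjusted p = 0.22).

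The damage-response genes GADD45A and AEN, a nuclease, stood at 35.3 and 28.8 against 18.0 and 15.3 and at 39.4 and 42.4 against 17.5 and 25.7. MDM2, a ubiquitin ligase, stood at 9.45 and 8.49 against 4.26 and 5.16, and BAX, which permeabilises mitochondria, at 124 and 98.7 against 81.5 and 65.1. The wild-type libraries were higher without overlap in all 4 genes, which were named after their values were seen. Over the 24 tested p53 targets 18 were lower and 1 higher without overlap, against 25.8% and 12.5% of all genes.

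Of 50 tested HOX and other homeobox genes, which hold positional identity, 16 were lower and 1 higher at an unadjusted p under 0.05, with a median of -0.22, and none passed adjustment. Of all genes 7.99% were lower and 4.38% higher. Among 45 tested SOX, PAX, GATA and other lineage factors the counts were 5 lower and 5 higher. After median-of-ratios scaling 11 homeobox genes were lower and 4 higher. MSX2 stood at 15.8 and 16.5 against 5.39 and 6.11 (log2 difference -1.35, limma adjusted p = 0.12), HOXC9 at 45.1 and 46.2 against 27.1 and 14.7, and HOXC10 at 39.8 and 51.8 against 23.1 and 30.5. HOXA9 was the higher member, at 41.2 and 48.0 against 69.4 and 92.5 (log2 difference 0.83, limma adjusted p = 0.21).

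Of 31 tested neuronal genes 10 were higher and 0 lower at an unadjusted p under 0.05, and GAP43 passed adjustment. Of all genes 4.38% were higher and 7.99% lower. The list's median was 0.15 against -0.09 over all genes. ENO2, the neuronal enolase, stood at 12.2 and 11.3 against 34.8 and 34.1 (log2 difference 1.48, limma adjusted p = 0.056) and passed with STING. CRMP1, which relays semaphorin signals, stood at 1 and 1.03 against 2.45 and 5.17, and TUBB3, a neuronal tubulin, at 5.23 and 4.35 against 8.76 and 10.8. VIM, the intermediate filament vimentin, stood at 86.9 and 136 against 173 and 223 (limma adjusted p = 0.30). Without wild-type vector library 1 the count of 10 dropped to 3.

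SNCB, beta-synuclein, was outside the list and stood at 2.50 and 2.46 against 10.6 and 9.66. Among keratins, KRT18, the partner of KRT8, did not share its difference: it stood at 53.9 and 63.1 against 50.4 and 81.9 (log2 difference 0.14, limma adjusted p = 0.87). HES4 and HES6, transcription factors of the NOTCH list, stood at 6.87 and 1.93 against 16.3 and 18.5 and at 13.9 and 10.6 against 56.5 and 27.4 (limma adjusted p = 0.18 for each).

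The lists of the translation machinery had medians of either sign, and no member of them passed adjustment with vector. The 78 tested cytosolic ribosomal proteins had a median of 0.38 with vector and 0.28 with STING. With vector it was 0.13 after quantile normalization and between 0.18 and 0.55 with a library left out in turn. Of them 11 were higher and 0 lower at an unadjusted p under 0.05, against 4.38% and 7.99% of all genes. Without overlap 38 were higher (12.5% of all genes were). RPLP0, a stalk protein, stood at 2698 and 2281 against 4514 and 3596, and RPSA at 1457 and 1170.5 against 2337 and 1799.9 (limma adjusted p = 0.27 and 0.29). RPL41 and RPS29, the most abundant, overlapped. Leaving out a library in turn gave between 2 and 17 higher members, with 2 when knockout vector library 1 was left out and 4 when wild-type vector library 2 was.

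Among 43 tested translation factors 6 were higher and 2 lower at an unadjusted p under 0.05, against 4.38% and 7.99% of all genes. Without overlap 8 were higher and 12 lower, against 12.5% and 25.8% of all genes, and the median was -0.13. EEF1A1, which brings tRNA to the ribosome, stood at 967 and 1359 against 1604 and 2048, and EEF2, the translocase, at 200 and 228 against 327 and 404 (limma adjusted p = 0.31 and 0.23). EEF2 passed with STING (log2 difference 1.34, limma adjusted p = 0.031). EIF5, which triggers GTP hydrolysis by eIF2, was among the lower at 23.3 and 36.1 against 11.6 and 18.6.

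Of 75 tested mitochondrial ribosomal proteins, 20 were lower and 1 higher at an unadjusted p under 0.05, against 7.99% and 4.38% of all genes. All 75 averaged at least 5 FPKM, and the median of all such genes was -0.17 with vector and -0.0011 with STING. The median of the 75 was -0.33 with vector and -0.36 with STING, and -0.16 with vector after median-of-ratios scaling. Without overlap 40 of the 75 were lower (25.8% of all genes were). After median-of-ratios scaling 12 were lower and 1 higher, and without knockout vector library 1 the lower count was 5. MRPL18 stood at 444 and 426 against 164 and 205 (log2 difference -1.24, SE 0.19, limma adjusted p = 0.071) and passed with STING (-1.33, limma adjusted p = 0.029). MRPL1 stood at 35.0 and 44.4 against 13.4 and 20.8. MRPS21 was the higher member, at 1142 and 860.4 against 1792 and 1374. The 77 tested nuclear genes of oxidative phosphorylation had a median of -0.04, with 1 higher and 3 lower.

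Of 34 tested glycolytic and hypoxia-responsive genes, 8 were higher and 0 lower at an unadjusted p under 0.05, against 4.38% and 7.99% of all genes. After median-of-ratios scaling 16 were higher, after quantile normalization 13, and with a library left out in turn between 7 and 12. Without overlap 18 were higher (12.5% of all genes were), and the median was 0.28 with vector and 0.82 with STING. None passed adjustment with vector and 7 did with STING. GAPDH, the glycolytic dehydrogenase, stood at 1604 and 1570.5 against 3644 and 2907 (2.06-fold, log2 difference 1.04, SE 0.18, limma adjusted p = 0.12). ALDOA and its brain form ALDOC, both aldolases, stood at 480 and 551 against 717 and 850 and at 3.43 and 2.69 against 7.998 and 6.80. BNIP3, a mitophagy receptor, stood at 99.2 and 91.6 against 163 and 217, and ANKRD37 at 5.09 and 7.33 against 19.02 and 14.4. TPI1, the most abundant enzyme of the list after GAPDH, overlapped at 904 and 947 against 708 and 1052. GAPDH has many processed copies in the genome, so its reads may be divided among them.

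Genes of the endoplasmic reticulum, the compartment in which PERK resides, are given next. Of 39 tested chaperones and folding enzymes 0 were higher and 2 lower at an unadjusted p under 0.05, against 4.38% and 7.99% of all genes. The list's median was -0.28 with vector and 0.24 with STING, against -0.09 and 0.02 over all genes. Without knockout vector library 1 the list's median with vector was 0.06. HSPA5 (BiP), the chaperone that holds PERK inactive, stood at 19.2 and 25.4 in wild-type and at 8.81 and 19.1 in knockout libraries, and CALR at 164 and 192 against 125 and 190. The lower of each pair of knockout values belongs to that library. Of 13 tested regulators of the unfolded protein response, 0 passed at an unadjusted p under 0.05 in either direction. XBP1, whose mRNA is spliced by IRE1, stood at 74.1 and 89.5 against 47.5 and 68.5 (limma adjusted p = 0.44). Among 24 tested genes of ER-associated degradation, 5 were lower and 1, DERL3, higher. SEL1L, the scaffold of the HRD1 ligase, stood at 6.48 and 4.01 against 1.59 and 1.13 (limma adjusted p = 0.21).

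**Figure D4:**
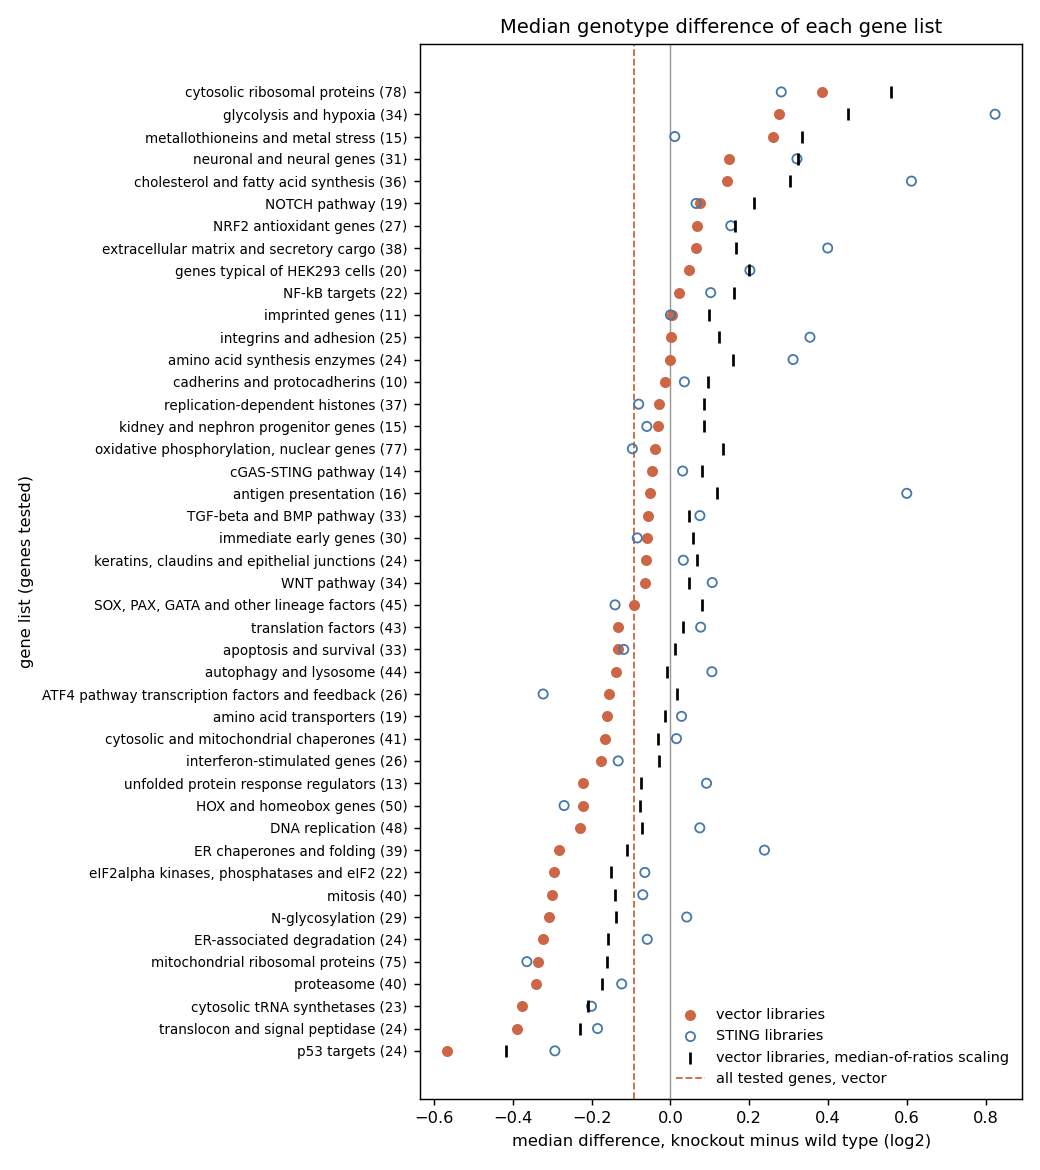
Median difference between knockout and wild-type cells over the tested members of each gene list with at least 10 of them (horizontal axis, log2; number tested in brackets), in vector libraries, in STING libraries and in vector libraries after median-of-ratios scaling; the dashed line is the median of all tested genes with vector, -0.09. Cytosolic ribosomal proteins (0.38) and p53 targets (-0.57) stand at the ends of the vector values as deposited, and glycolysis and hypoxia (0.82) is the highest with STING. The ER chaperone list is on opposite sides of 0 in vector (-0.28) and STING libraries (0.24). So are other lists, such as DNA replication (-0.23 and 0.07), and the median of all tested genes (-0.09 and 0.02).

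The differences were not spread evenly over the genome. Tested genes were placed on chromosomes by symbol through RefSeq's table of GRCh38.p14, which matched 99.2% of them and was used only for chromosome and gene order. Among the 6295 placed genes with a mean of at least 5 FPKM, medians are given relative to all such genes. Chromosome 13 stood lowest, at -0.44 with vector and -0.46 with STING: 57 of its 70 genes (81.4%) lay below the overall median, and 33 were lower and 0 higher at an unadjusted p under 0.05. Chromosome 21 stood highest, at 0.29 and 0.36, with 56 of 64 genes above the overall median. The other chromosomes lay between -0.08 and 0.10 with vector.

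The genes were then cut into 200 windows of 30 to 35 neighbouring genes. Of these 9 stood at least 0.3 higher and 9 at least 0.3 lower with vector, and all 18 had the same sign with STING. The lowest ran from PSPC1 to ESD on chromosome 13, at -0.61 with vector and -0.63 with STING, where 33 of 35 genes lay below the overall median. The next ran from ATP5I to WDR1 on chromosome 4 (-0.50 and -0.39) and from AIFM1 to CETN2 on chromosome X (-0.45 and -0.53). Neighbouring windows on chromosomes 6, 7 and X shared a sign.

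The higher windows were led by 6 adjoining windows on chromosome 1, from SELENBP1 to MARC1, at between 0.31 and 0.45 with vector. A window from BRWD1 to PRMT2 on chromosome 21 stood at 0.44 and 0.47, and all 32 of its genes lay above the overall median with STING. On chromosome 10 the window from EIF3A to MTG1 stood at 0.39 and 0.18. The windows were chosen on the vector values, so only their STING values are independent of the choice.

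Several lower genes sit in these windows. Of the 56 genes lower by the size rule, 23 lie in the 9 lower windows, which hold 612 of the 12254 tested genes. Of the 67 higher genes, 8 lie in the 9 higher windows, which hold 528. Genes and windows were both chosen on the vector values, so these overlaps are partly set by the choice. The size rule also required a mean of at least 10 FPKM in the higher group, which was not required of the 12254. On chromosome 13, PSPC1, a paraspeckle protein, stood at 13.7 and 17.5 against 3.78 and 6.49, SAP18, a histone deacetylase partner, at 91.5 and 84.8 against 27.6 and 36.9, and MTIF3, a mitochondrial initiation factor, at 71.7 and 91.2 against 32.6 and 47.2. SAP18 and MTIF3 passed with STING (limma adjusted p = 0.029 and 0.036). None of the 26 tested interferon-stimulated genes or the 24 tested p53 targets, whatever their direction, lies in the lower windows, and 1 of the 50 tested homeobox genes and 3 of the 75 mitochondrial ribosomal proteins do. Why neighbouring genes stood together was not tested.

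**Figure D5:**
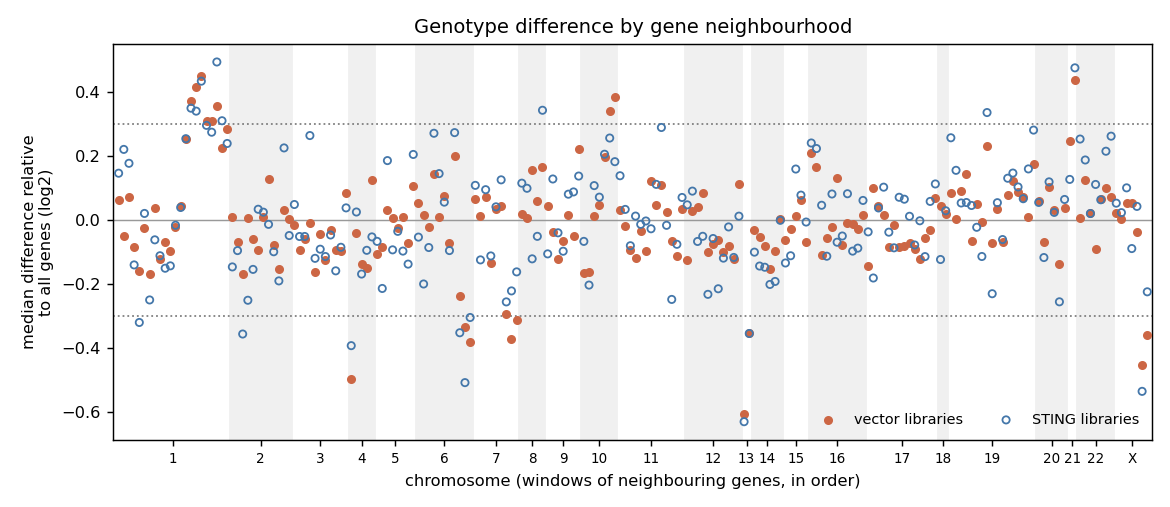
Median difference between knockout and wild-type cells in 200 windows of neighbouring genes, relative to all placed genes (vertical axis, log2), in order along the chromosomes (horizontal axis), in vector and STING libraries; dotted lines are at -0.3 and 0.3. Runs of windows on chromosomes 1 and 21 are high and on chromosomes 6, 7, 13 and X low in both sets of libraries.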

How the data were processed

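FPKM values, in which fragments are divided by transcript length and sequencing depth, were deposited by the authors, made with TopHat2 2.1.1 and Cufflinks 2.2.1 on hg19 per the submitters' processing notes. Which annotation they used is not given in the sources used here. In the knockout experiment the table names no unit and was taken to hold FPKM raised to at least 1, since 1 is its lowest value. Groups came from the sample titles. The log2(FPKM + 1) values, unscaled, were fitted in R 4.3.3 with limma 3.58.1, with 1 mean for each of 4 groups of the 8 knockout-experiment libraries and eBayes with trend and robust estimation, two-sided, adjusted by Benjamini and Hochberg over 12254 symbols that varied, at 0.05, tested first on simulated data. A fold on this scale understates low genes. The members and the 50 gene lists were chosen with earlier results of these data known, so no list is independent evidence. The rule for naming genes took EIF2AK3, TMEM173, genes past the threshold and the most abundant pair of each list, of which pairs are given for part of the lists. IFNB1, the other members named and the large differences were chosen after their values were seen. Motifs and sequences are from RefSeq's promoter table. Alternatives are in the closing section.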

Additional observations from a re-analysis of the deposited data

How the results depend on the processing

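Depth is not given, 2 libraries a group limit every test, and where leaving out a library left 1 in an arm, that library was assumed to vary like the other groups. The 6 calls with vector became 17 with pseudocount 0, 9 with pseudocount 5, 32 in genes averaging at least 5 FPKM, 53 with median-of-ratios scaling and 24 with quantile normalization. No gene passed in limma with no filter, with neither trend nor robust estimation, or with the 4 vector libraries alone (1544, 1718 and 1086 genes at an unadjusted p under 0.05). Leaving out a library in turn gave 0 to 3. With STING, 215 calls became 356 with the mean filter, 443 with median of ratios and 468 with quantile normalization, and 0 to 128 with a library left out. The replicate number as a block gave 105 calls with vector and 851 with STING, and at an unadjusted p under 0.05 62 higher cytosolic ribosomal proteins in place of 11 and 17 lower proteasome genes in place of 4. Deviations of same-numbered libraries correlated at 0.04 to 0.53, 0.43 between the vector groups (0.10 to 0.60 and 0.55 in genes averaging at least 5 FPKM). The labels do not say what a number shares, so the fit without the block was kept. The interaction gave 0 in each setting.

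Of 111 named genes (IFIT5 not among them), the sign held in 1839 of 1866 alternative fits, and each exception was a gene far from the threshold. DDIT3, IRF3 and PYCR1 turned to 0.12, 0.086 and 0.031 with median of ratios and to 0.12, 0.10 and 0.028 with quantile normalization. EIF2AK2 and TPI1 turned to 0.022 and 0.075 with median of ratios, and RPL41 to -0.12 with quantile normalization. Leaving out a library in turn spanned -0.53 to 0.031 for B2M, -0.51 to 0.10 for CALR, -0.61 to 0.031 for CHAC1, -0.16 to 0.058 for DDIT3, -0.45 to 0.25 for EIF2AK2, -0.15 to 0.19 for EIF2AK4, -0.36 to 0.18 for IRF3, -0.21 to 0.48 for KRT18, -0.30 to 0.014 for PYCR1, -0.18 to 0.34 for RPL41, -0.47 to 0.0054 for SLC1A5, -0.30 to 0.57 for TMEM173 and -0.39 to 0.18 for TPI1. The cause was not tested.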
